A study of Mus musculus with 8 samples.

Results

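The transcripts described here are those of 10 genes that supply glutathione, thioredoxin-linked reducing power and NADPH to the cell: Slc7a11, Gclc, Gclm, Gsr, Srxn1, Txnrd1, Nqo1, Ugdh, G6pdx and Me1. They were taken by symbol from the deposited gene table. All 10 symbols were found, each on a single row, among 33467 genes in that table, and all 10 passed the filter on low counts. The libraries are bulk liver RNA of wild-type C57BL/6J mice. The DDC group ate chow holding 1% 3,5-diethoxycarbonyl-1,4-dihydrocollidine over 4 weeks, which causes cholestatic injury and biliary fibrosis, and the control group ate standard chow over the same time. Each group had 4 animals and each library is 1 animal, with a single batch label throughout. Age and sex are not given in the sources used here.

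NRF2, the product of Nfe2l2, is a transcription factor that the adaptor KEAP1 holds at a low level by steering it to the proteasome. Electrophiles and oxidants modify KEAP1, NRF2 accumulates, pairs with a small MAF protein and binds antioxidant response elements in DNA. BACH1 occupies such elements as a repressor. The targets in liver include the enzymes that import cystine, make and recycle glutathione, reduce thioredoxin and peroxiredoxin, detoxify quinones and provide NADPH.

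Of the 10 genes, 7 rose and 1 fell in DDC livers, and the transcripts of both subunits of the rate-limiting enzyme of glutathione synthesis did not pass the test. Slc7a11 was 10.1-fold and Srxn1 7.28-fold higher in DDC, G6pdx 4.48-fold, Nqo1 3.86-fold, and Gsr, Ugdh and Txnrd1 less than 2-fold. Me1 was 3.14-fold lower. The test was edgeR's quasi-likelihood F test on the counts of all genes, two-sided, called at a Benjamini-Hochberg adjusted p under 0.05. It called 56.8% of the 19535 genes tested, 30.2% higher and 26.6% lower in DDC. The 7 rises among the 10 genes are to be read against 30.2%, and the 1 fall against 26.6%. The groups did not overlap for the 8 genes that passed, as for 52.6% of all genes tested. The 10 genes had a median log2 fold change of 0.81, and all genes tested had one of 0.07. Levels within a gene are given as CPM, counts over library sizes scaled by TMM, a method that sets the bulk of genes equal between libraries. TMM factors were 1.21 to 1.27 in DDC and 0.792 to 0.815 in control livers, so scaling matters here. On unscaled library totals the median over all genes was 0.70, the shares called were 58.9% higher and 8.96% lower, and 9 of the 10 genes rose while Me1 still fell. A limma fit on log2(FPKM + 0.1) called 59.3% of genes higher and 9.32% lower, and likewise 9 of the 10 higher and Me1 lower.

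**Figure D1:**
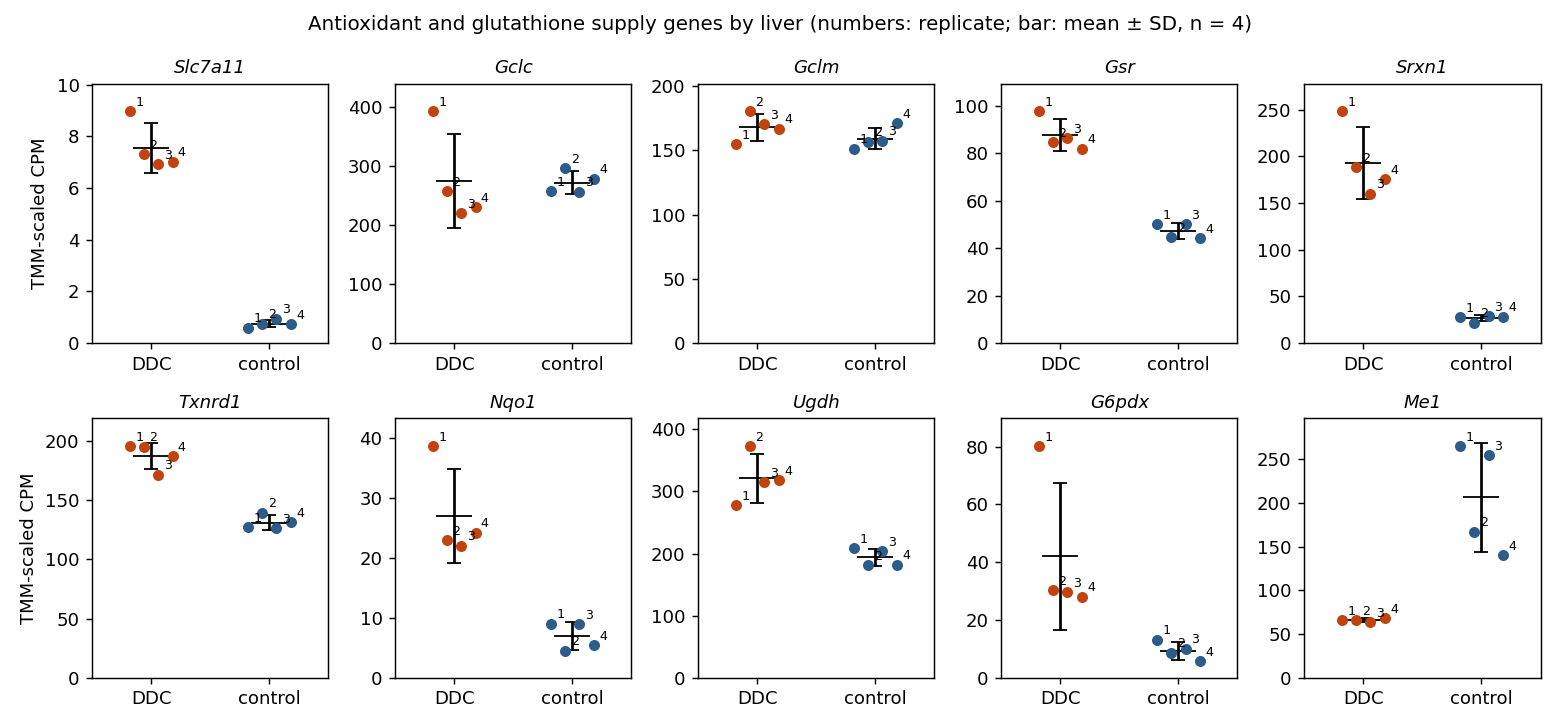
TMM-scaled CPM (vertical axes, each starting at 0) of the 10 genes in DDC livers and control livers, with each point 1 liver labelled by its replicate number and bars giving mean ± SD, n = 4 per group. The groups do not overlap for 8 genes, Me1 is the lower of these in DDC, and Gclc and Gclm overlap. DDC replicate 1 stands above the other DDC livers for G6pdx, at 80.2 against 28.0 to 30.3 CPM.

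Promoter sequence was looked at because these genes are known targets of a factor that binds a defined DNA element. RefSeq windows on GRCm38.p6, from 250 bases before to 50 bases after a gene's start, were held for 8 of the 10 genes, and Gclc and Gsr had none. Each window was searched on both strands for TGACNNNGC, the core of the antioxidant response element, and for TGANTCAGC, its AP-1-like form, which overlaps the first wherever its N is C. A match to either stood in a window of 6 of the 8 genes, against 14.7% of all 27025 genes with a window. Since the 10 genes were listed as NRF2 targets, that share describes the list and says nothing of binding in these livers. Srxn1 rose, G6pdx rose, Gclm did not pass and Me1 fell, and each holds a match. Their windows are shown 5′ to 3′ on the gene's own strand as far as base 10 of the transcript, with matches in capitals. A second match of Srxn1 lies after the stretch shown.
Srxn1, chr2:152105274-152105533, plus strand: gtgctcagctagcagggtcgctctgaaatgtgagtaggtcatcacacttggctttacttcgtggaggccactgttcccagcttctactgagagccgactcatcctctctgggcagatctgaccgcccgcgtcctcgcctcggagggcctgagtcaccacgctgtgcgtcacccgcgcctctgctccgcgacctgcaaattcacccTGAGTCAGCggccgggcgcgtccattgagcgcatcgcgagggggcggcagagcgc
G6pdx, chrX:74428871-74429130, minus strand: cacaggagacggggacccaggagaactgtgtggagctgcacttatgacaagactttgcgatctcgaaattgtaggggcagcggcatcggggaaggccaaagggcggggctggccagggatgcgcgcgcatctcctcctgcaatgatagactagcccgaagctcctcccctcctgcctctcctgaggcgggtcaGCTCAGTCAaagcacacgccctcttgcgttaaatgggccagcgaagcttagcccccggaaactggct
Gclm, chr3:122245307-122245566, plus strand: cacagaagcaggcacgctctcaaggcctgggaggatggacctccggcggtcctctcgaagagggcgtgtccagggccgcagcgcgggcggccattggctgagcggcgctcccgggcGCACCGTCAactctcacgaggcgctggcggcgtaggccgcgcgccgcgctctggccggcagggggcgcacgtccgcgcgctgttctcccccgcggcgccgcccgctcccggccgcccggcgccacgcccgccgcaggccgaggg
Me1, chr9:86695905-86696164, minus strand: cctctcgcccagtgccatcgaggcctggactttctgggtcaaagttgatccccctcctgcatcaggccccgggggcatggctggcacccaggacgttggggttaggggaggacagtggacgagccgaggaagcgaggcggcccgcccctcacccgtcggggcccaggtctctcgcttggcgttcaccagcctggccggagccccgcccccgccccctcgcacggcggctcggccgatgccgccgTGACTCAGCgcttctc
The Me1 match, TGACTCAGC, fits both motifs and spans the start of transcription. The Srxn1 match, TGAGTCAGC, begins 45 bases before the start. TGANTCAGC was the rarer motif, held by 1.37% of all genes with a window. No match stood in the windows of Nqo1 and Slc7a11, which says only that these letters are absent from those windows.

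Slc7a11 encodes the light chain of the exchanger that imports cystine, the source of cysteine for glutathione (ENSMUSG00000027737, chromosome 3, 49892526 to 50443614, minus strand). It measured 8.97, 7.31, 6.92 and 7.03 CPM in DDC replicates 1 to 4, against 0.582, 0.745, 0.932 and 0.723 CPM in control replicates 1 to 4. The lowest DDC liver was far above the highest control. The log2 fold change was 3.34 (SE 0.20, edgeR adjusted p = 7.27e-07, n = 4 each), the largest of the 10. The transcript was scarce even so, with a deposited count of 30 to 49 per control library and 618 to 716 per DDC library. Its partner chain Slc3a2, which carries several amino acid transporters to the membrane, rose 1.32-fold, to 78.3 ± 7.04 CPM in DDC against 59.5 ± 4.93 CPM in control livers (SD, n = 4; edgeR adjusted p = 0.00264). On the deposited FPKM scale, which divides by gene length, the Slc7a11 to Slc3a2 ratio was 0.0234 to 0.0258 in DDC and 0.0023 to 0.0036 in control livers, without overlap.

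Glutamate-cysteine ligase makes the first and rate-limiting step of glutathione synthesis. Gclc encodes its catalytic subunit (ENSMUSG00000032350, chromosome 9, 77754535 to 77794485, plus strand). It measured 392, 257, 220 and 230 CPM in DDC replicates 1 to 4, against 256, 295, 256 and 278 CPM in the controls. DDC replicate 1 was above every control, DDC replicates 3 and 4 were below every control, and replicate 2 lay inside the control range. The log2 fold change was 0.02 (SE 0.17, edgeR adjusted p = 0.941). Without DDC replicate 1 it was -0.23 and passed as lower (SE 0.08, adjusted p = 0.0432). On unscaled library totals it was 0.64 and passed as higher (adjusted p = 0.00687), though 0.06 below the median that all genes had in that fit.

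Gclm encodes the modifier subunit, which raises the affinity of the ligase for glutamate and eases its inhibition by glutathione (ENSMUSG00000028124, chromosome 3, 122245557 to 122270732, plus strand). It measured 155, 180, 170 and 167 CPM in DDC livers and 151, 157, 158 and 171 CPM in control livers. The groups overlapped, and the log2 fold change was 0.08 (SE 0.07, edgeR adjusted p = 0.336). A missed threshold does not show that Gclm was equal, but at this SE the difference was small beside those of Slc7a11 and Srxn1. On unscaled library totals its log2 fold change was 0.70 (adjusted p = 1.01e-05), equal to the median of all genes in that fit. A gene annotated on the opposite strand of Gclm, Gm17494, held 3.87 to 12.8 CPM in DDC and 4.01 to 34.8 CPM in control livers. The Gclc to Gclm FPKM ratio was 4.23, 2.38, 2.15 and 2.30 in DDC livers, against 2.83, 3.14, 2.71 and 2.72 in control livers. DDC replicate 1 had the highest ratio of the 8 livers, and DDC replicates 2 to 4 had the lowest 3.

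Gss, which joins glycine to complete glutathione and was singled out after its values were seen, rose 1.54-fold (130 ± 6.53 CPM in DDC, 84.5 ± 2.30 CPM in control livers; edgeR adjusted p = 9.8e-06). Gsr, glutathione reductase, returns oxidised glutathione to its reduced form with NADPH (ENSMUSG00000031584, chromosome 8, 33652523 to 33698163, plus strand). It measured 97.7, 84.7, 86.5 and 81.9 CPM in DDC livers and 50.1, 44.5, 50.1 and 44.2 CPM in control livers. Every DDC liver exceeded every control, with a log2 fold change of 0.89 (SE 0.07, edgeR adjusted p = 6.92e-06).

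Srxn1 encodes sulfiredoxin, which restores overoxidised peroxiredoxins with ATP (ENSMUSG00000032802, chromosome 2, 152105516 to 152109322, plus strand). It measured 248, 189, 160 and 176 CPM in DDC livers, against 27.9, 21.7, 28.7 and 27.9 CPM in control livers. The groups were wide apart, DDC replicate 1 being the highest liver and control replicate 2 the lowest. The log2 fold change was 2.86 (SE 0.15, edgeR adjusted p = 4.02e-07). Txnrd1, the cytosolic selenoprotein that reduces thioredoxin, lies on chromosome 10 (ENSMUSG00000020250, 82833951 to 82897712, plus strand). It measured 196, 195, 172 and 187 CPM in DDC livers and 127, 140, 126 and 131 CPM in control livers. The groups did not overlap, and the log2 fold change was 0.52 (SE 0.06, edgeR adjusted p = 9.73e-05). Eid3, annotated inside Txnrd1 on the same strand, held 0.632 to 7.59 CPM in DDC and 0.921 to 2.04 CPM in control livers, far below Txnrd1.

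Nqo1 reduces quinones by a paired electron transfer that avoids semiquinone radicals, and is widely used as a readout of NRF2 (ENSMUSG00000003849, chromosome 8, 107388225 to 107403206, minus strand). It measured 38.6, 22.9, 22.0 and 24.1 CPM in DDC livers, against 8.98, 4.51, 8.94 and 5.39 CPM in control livers. The groups did not overlap, DDC replicate 1 was well above the other DDC livers, and control replicates 1 and 3 were above control replicates 2 and 4. The log2 fold change was 1.95 (SE 0.28, edgeR adjusted p = 0.000336) and 1.71 without DDC replicate 1. Ugdh oxidises UDP-glucose to UDP-glucuronate, the donor for glucuronidation (ENSMUSG00000029201, chromosome 5, 65413221 to 65435949, minus strand). It measured 278, 373, 315 and 318 CPM in DDC livers and 208, 181, 204 and 182 CPM in control livers. Here DDC replicate 1 was the lowest DDC liver, still above every control, and the log2 fold change was 0.73 (SE 0.10, edgeR adjusted p = 0.000136).

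Both remaining genes make NADPH in the cytosol, and they moved in opposite directions. G6pdx encodes glucose-6-phosphate dehydrogenase, the entry enzyme of the pentose phosphate pathway (ENSMUSG00000031400, chromosome X, 74409483 to 74429194, minus strand). It measured 80.2, 30.3, 29.5 and 28.0 CPM in DDC livers, against 13.2, 8.66, 10.05 and 5.64 CPM in control livers. All DDC livers exceeded all controls, and DDC replicate 1 stood far above the rest. The log2 fold change was 2.16 (SE 0.43, edgeR adjusted p = 0.00344) and 1.62 without that liver (SE 0.23, adjusted p = 0.000462). Ikbkg, which overlaps G6pdx on the opposite strand, averaged 71.4 CPM in DDC and 79.0 CPM in control livers (edgeR adjusted p = 0.469) and was lowest in DDC replicate 1, at 57.7 CPM. G6pd2, an autosomal copy of the gene whose reads may be shared with it, also rose (log2 fold change 1.68, edgeR adjusted p = 0.0312) but stayed at or below 1.11 CPM in every liver.

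Me1, cytosolic malic enzyme, yields NADPH chiefly for fatty acid synthesis and is also an NRF2 target (ENSMUSG00000032418, chromosome 9, 86581371 to 86695953, minus strand). It measured 65.6, 65.8, 63.7 and 68.3 CPM in DDC livers, against 265, 167, 255 and 140 CPM in control livers. The DDC livers were tightly grouped and all lower, while control replicates 1 and 3 held more than control replicates 2 and 4. The log2 fold change was -1.65 (SE 0.20, edgeR adjusted p = 9.79e-05). On unscaled library totals it was -1.03 (adjusted p = 0.00138). The G6pdx to Me1 FPKM ratio, chosen after the values were seen, was 1.53, 0.575, 0.578 and 0.512 in DDC livers, against 0.0619, 0.0647, 0.0492 and 0.0499 in control livers.

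**Figure D2:**
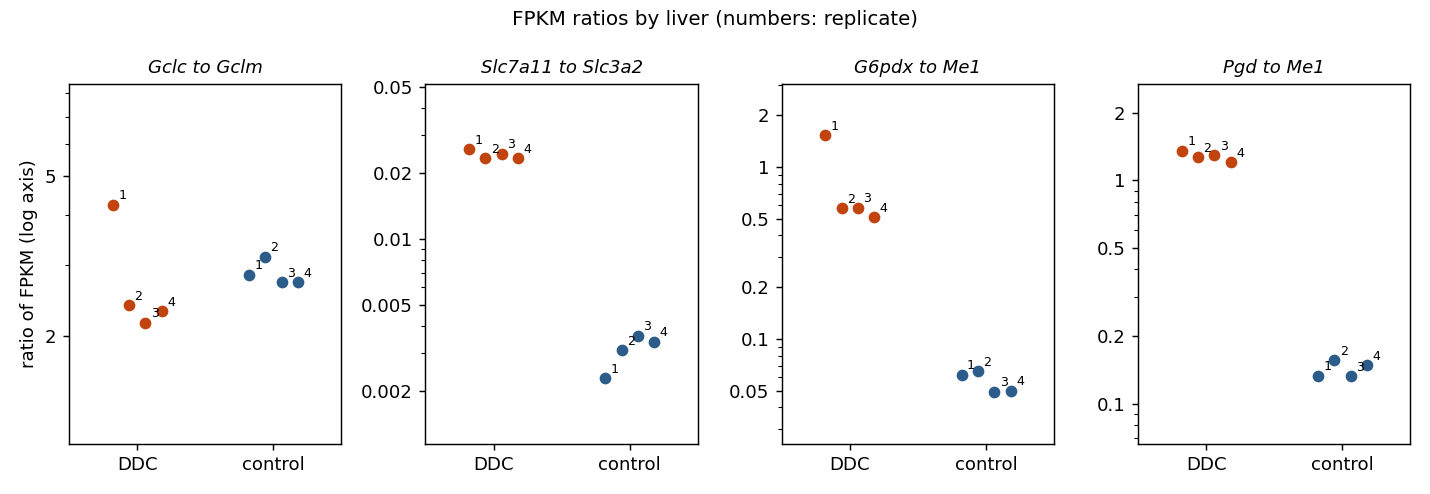
Ratios of deposited FPKM values on log axes for Gclc to Gclm, Slc7a11 to Slc3a2, G6pdx to Me1 and Pgd to Me1, with each point 1 liver labelled by replicate number, DDC at left and control at right. Of the 4 ratios only Gclc to Gclm overlaps between the groups, with DDC replicate 1 at 4.23 and the other DDC livers at 2.15 to 2.38. The Pgd to Me1 ratio, like G6pdx to Me1 chosen after the values were seen, is 1.21 to 1.36 in DDC livers and 0.132 to 0.157 in control livers.

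The order of levels per length, as group means of FPKM, differed in some places between the groups. In DDC livers it ran Gclc 86.8, Srxn1 81.7, Ugdh 56.8, Gsr 38.0, Gclm 31.9, Txnrd1 31.6, Nqo1 20.6, Me1 20.4, G6pdx 16.2 and Slc7a11 0.645 FPKM. The ranges over livers overlapped for Gclc and Srxn1, for Gclm and Txnrd1, for Nqo1 and Me1, and for Me1 and G6pdx. In control livers it ran Gclc 56.1, Me1 41.9, Ugdh 22.4, Gclm 19.7, Txnrd1 14.4, Gsr 13.4, Srxn1 7.32, Nqo1 3.48, G6pdx 2.37 and Slc7a11 0.0405 FPKM. Overlapping neighbours there were Gclc and Me1, Ugdh and Gclm, Txnrd1 and Gsr, and Nqo1 and G6pdx. Gclc was thus the most abundant of the 10 by mean in both groups, Srxn1 was in second place in DDC and seventh in control livers, and Me1 was in eighth place in DDC and second in control livers. FPKM values carry no TMM scaling, so an order within a group is unaffected by it while a fold between groups is not.

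**Figure D3:**
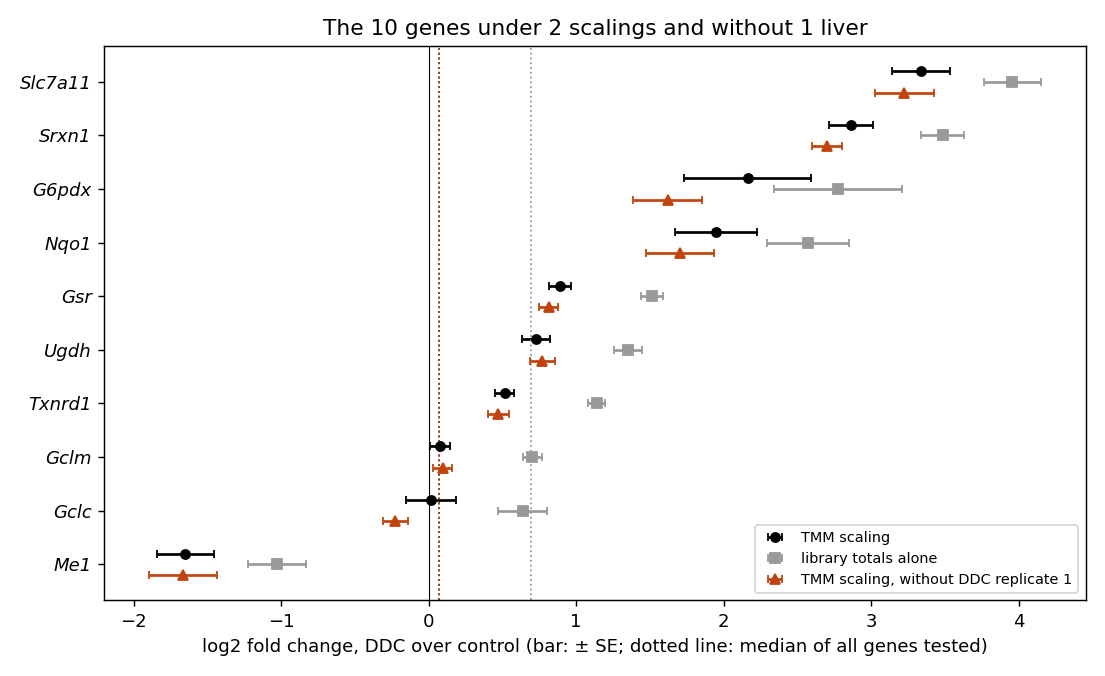
Log2 fold change, DDC over control, with SE bars for the 10 genes under TMM scaling, library totals alone, and TMM scaling without DDC replicate 1, with dotted lines at each fit's median of all genes tested. Under library totals every gene sits higher along with the median, from 0.07 to 0.70. Gclc and Gclm lie close to the median in both scalings, and leaving out DDC replicate 1 shifts G6pdx to 1.62 and Gclc to -0.23.

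The transcript of NRF2 itself rose and that of its inhibitor did not pass. Nfe2l2 measured 123, 164, 148 and 151 CPM in DDC livers, against 103, 78.7, 100 and 81.8 CPM in control livers, without overlap (log2 fold change 0.69, SE 0.11, edgeR adjusted p = 0.000675). Keap1 measured 44.8 to 47.9 CPM in DDC and 47.3 to 51.8 CPM in control livers (log2 fold change -0.08, SE 0.05, adjusted p = 0.226), but 0.54 with library totals alone, where it passed as higher. Among 12 genes of NRF2 and its regulators, 7 fell and Nfe2l2 alone rose, and their median log2 fold change was -0.24. On unscaled totals 3 fell and 8 rose. Bach1, the repressor at the same elements, fell 2.25-fold, to 28.4 ± 3.08 CPM in DDC against 64.0 ± 6.39 CPM in control livers. Maff, a small MAF partner, fell 2.46-fold, and Nfe2l1, a relative of NRF2 that controls proteasome genes, fell 1.86-fold. These 3 falls passed under library totals as well (adjusted p from 0.000451 to 0.00334).

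Other known NRF2 targets were mixed. Of 26, 11 rose, 7 fell and 8 did not pass, and their median log2 fold change was 0.32. On unscaled totals 20 rose and 1 fell. Gsta1 and Gstm3, glutathione S-transferases of families whose members share sequence, rose 24.1-fold and 12.2-fold. Abcc4, an exporter of conjugates and bile acids, rose 9.69-fold, and Hmox1, which degrades heme, rose 4.46-fold to 199 ± 28.6 CPM in DDC against 44.5 ± 16.7 CPM in control livers. Gstp1 fell 2.37-fold (edgeR adjusted p = 0.0327), with 500 to 612 CPM in DDC livers and 674, 1958, 609 and 1921 CPM in control replicates 1 to 4. The Gstp1 call ended in most alternatives: both scalings on totals, no count filter, limma voom, the 3 limma fits on FPKM, the replicate block, and leaving out any single liver except control replicates 1 and 3 (adjusted p from 0.0700 to 0.422). Without DDC replicate 1, 9 of the 26 rose and 7 fell.

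Around glutathione, 5 of 15 genes of synthesis and turnover rose and 8 fell (8 and 5 with library totals alone). Oplah, which reclaims glutamate from oxoproline, fell 3.74-fold, Slc38a3, a glutamine transporter, 3.35-fold, and Gnmt, a methyltransferase that consumes S-adenosylmethionine, 3.02-fold. Chac1, which degrades glutathione, fell 4.15-fold from a low level, at 0.698 to 1.72 CPM in DDC against 2.00 to 7.47 CPM in control livers. Ggct, a gamma-glutamylcyclotransferase, rose 1.89-fold. Of 13 glutathione-dependent peroxidases and related enzymes 4 rose and 8 fell (6 and 2 with library totals alone). Gpx3, a secreted glutathione peroxidase, rose 5.32-fold and measured 138, 60.2, 63.7 and 62.5 CPM in DDC livers, against 13.2, 13.2, 13.8 and 20.7 CPM in control livers. Gpx7, an endoplasmic reticulum peroxidase, rose 3.59-fold, while the glyoxalases Hagh and Glo1, which use glutathione to clear methylglyoxal, fell 3.11-fold and 2.57-fold.

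Unlike Srxn1 and Txnrd1, most genes of a further antioxidant list fell under TMM scaling. Of 20 genes listed as thioredoxins, peroxiredoxins and antioxidant enzymes, with Txnip among them, 15 fell and 0 rose by edgeR (median log2 fold change -0.59). At an unadjusted edgeR p under 0.05 the counts were 16 lower and 0 higher, by DESeq2 15 and 0, and by limma voom 15 and 0. With library totals alone 8 fell and 7 rose, and without DDC replicate 1 the counts were 15 and 1. Cat, catalase, fell 3.02-fold, to 818 ± 82.3 CPM in DDC against 2470 ± 24.8 CPM in control livers, and Sod1, cytosolic superoxide dismutase, fell 2.74-fold. Txnip, the thioredoxin-binding inhibitor, fell 3.42-fold, and Msrb1, a methionine sulfoxide reductase, fell 2.31-fold. These 4 falls also passed with library totals alone (edgeR adjusted p from 1.92e-06 to 0.000215).

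Genes around NADPH supply were mixed. The 17 listed include pentose phosphate steps that make no NADPH, such as Rpia, Tkt and Taldo1, and the NAD kinases Nadk and Nadk2. Of the 17, 4 rose and 9 fell (7 and 2 with library totals alone). The 4 that rose were Pgd, Rpia, Me2 and Mthfd2, so these are not counts of NADPH producers alone. Nnt was counted by its row with the higher mean count, which did not pass. Its level was split between rows, as given under Other observations. Pgd, the next NADPH-yielding enzyme after G6pdx in the pentose phosphate pathway, rose 2.91-fold, at 149, 140, 139 and 138 CPM in DDC livers and 59.3, 43.9, 56.5 and 34.9 CPM in control livers. Me2, a mitochondrial malic enzyme, rose 3.17-fold from a low level. H6pd, the endoplasmic reticulum counterpart of G6pdx, fell 2.39-fold, and Nadk2, a mitochondrial NAD kinase, fell 2.46-fold. Of 6 genes around UDP-glucuronate, listed for its supply, transport or use, 3 rose and 2 fell (4 and 1 with library totals alone). The rises were Pgm2, Uxs1, which consumes UDP-glucuronate, and Gusb, which cleaves glucuronides. The falls, Pgm1 and Ugp2, were in steps leading to UDP-glucose. Pgm2 rose 3.54-fold, Gusb, lysosomal beta-glucuronidase, rose 1.58-fold, Pgm1, which feeds glucose-1-phosphate to the pathway, fell 1.97-fold, and Ugp2, which makes UDP-glucose, fell 1.67-fold. The Ugp2 call ended with library totals alone (log2 fold change of -0.12, edgeR adjusted p = 0.406).

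Lipogenic genes, to which Me1 also belongs by function, fell in 9 of 12 cases and rose in 1 (4 and 1 with library totals alone). Acacb fell 8.26-fold, Elovl6 5.56-fold, the glucose-sensing factor Mlxipl 4.36-fold and Pklr, liver pyruvate kinase, 3.32-fold. The Pklr call ended in the limma fit on log2(FPKM + 0.1) with no filter (log2 fold change -0.97, adjusted p = 0.0582). As for Me1, control replicates 1 and 3 held more than replicates 2 and 4: Elovl6 was at 396, 129, 353 and 80.5 CPM in control replicates 1 to 4 and at 34.7 to 54.7 CPM in DDC livers. Srebf1, a lipogenic transcription factor, rose 1.48-fold with overlapping groups. Fasn, fatty acid synthase, did not pass (edgeR adjusted p = 0.652). It measured 387 to 560 CPM in DDC livers and 1101, 250, 997 and 157 CPM in control replicates 1 to 4. Acaca did not pass either. These list counts are edgeR calls unless another tool is named. The main counts, under TMM scaling, are to be read against the 30.2% higher and 26.6% lower of all genes. Counts with library totals alone are to be read against the 58.9% higher and 8.96% lower of all genes in that fit. These comparisons were not tests of the lists.

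**Figure D4:**
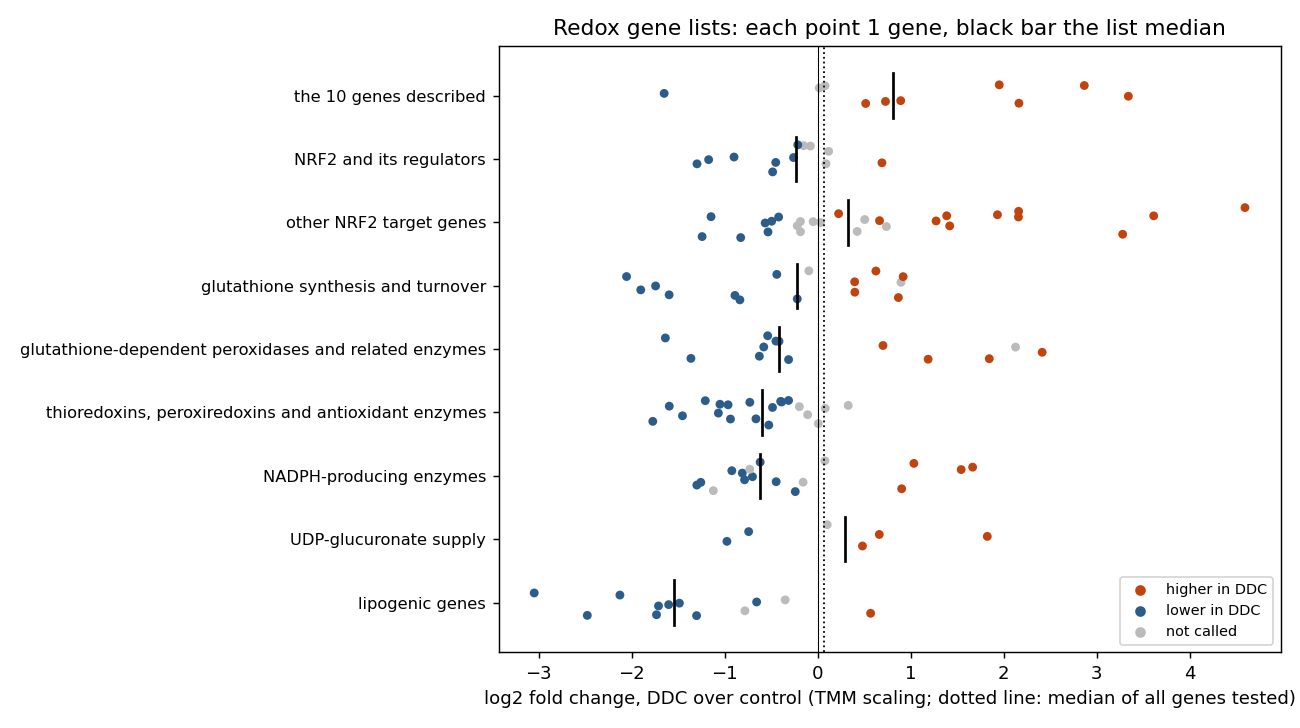
Log2 fold change, DDC over control, under TMM scaling for each gene of the 10 described and of 8 related lists, coloured by call, with a black bar at each list's median and a dotted line at the median of all genes, 0.07. The 10 genes have a median of 0.81, other NRF2 targets 0.32, thioredoxins, peroxiredoxins and antioxidant enzymes -0.59 and lipogenic genes -1.54.

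In bulk liver, fewer cells of a type and less RNA per cell cannot be told apart, and marker transcripts of several cell types differed between these groups. Hepatocyte markers fell in 6 of 6 cases, with a summed level of 55545 to 70316 CPM in DDC and 127620 to 154340 CPM in control livers. Most of that sum was Alb, at 44349 to 57465 CPM in DDC and 99237 to 128230 CPM in control livers. Macrophage markers rose in 10 of 10 (1649 to 1770 CPM in DDC, 235 to 290 CPM in control livers). Cholangiocyte markers rose in 5 of 7 (707 to 1086 CPM in DDC, 69.2 to 198 CPM in control livers). Most of that sum in DDC livers was Spp1, which macrophages also express. The other 6 summed to 101 to 164 CPM in DDC livers and to 27.4, 146, 23.1 and 16.7 CPM in control replicates 1 to 4, so control replicate 2 overlapped the DDC range. That liver stood apart for Krt19 (60.7 CPM, the other controls 5.37 to 13.3), Muc1 (53.7 CPM, the others 1.41 to 2.46) and the stellate marker Acta2 (56.2 CPM, the others 4.09 to 6.11), and the calls of the 8 genes that passed held without it. Stellate cell and fibroblast markers rose in 5 of 8 (1006 to 1188 CPM in DDC, 309 to 361 CPM in control livers). Most of that sum in DDC livers was Col1a1, Col1a2, Col3a1 and Dcn, while Des, Lrat and Acta2 did not pass. Without DDC replicate 1, Des passed as lower (log2 fold change -2.13, edgeR adjusted p = 0.000483) and Lrat as higher (0.43, adjusted p = 0.0117). Neutrophil markers rose in 4 of 5 (33.2 to 81.9 CPM in DDC, 20.7 to 25.9 CPM in control livers). T, NK and B cell markers rose in 3 of 7 and fell in 3, at 6.72 to 10.6 CPM in DDC and 4.36 to 5.80 CPM in control livers. Endothelial markers rose in 1 of 5 (119 to 164 CPM in DDC, 105 to 130 CPM in control livers). These counts stand beside 30.2% higher and 26.6% lower of all genes. On unscaled totals the falls among hepatocyte markers numbered 5 of 6, and the rises among endothelial markers 5 of 5. In that fit 58.9% of all genes were higher and 8.96% lower. The median log2 fold change there was 0.83 for endothelial markers and 0.70 for all genes. No marker was at 0 throughout either group. The part of these shifts in the values of the 10 genes was not tested.

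DDC replicate 1 was the highest DDC liver for 7 of the 10 genes and the lowest for 2, against 32.5% and 34.8% of all genes tested. For each of the 10 genes, the gene whose log2 CPM followed it most closely over the 8 livers was found, among named genes at 1 CPM or more. For Srxn1 it was Clec1b (Pearson r = 0.999), for Slc7a11 Was (r = 0.999), for Gsr Lhfp (r = 0.998), for Me1 Pgrmc2 (r = 0.998) and for Nqo1 Sema6d (r = 0.993). For G6pdx it was Vegfc (r = 0.990), for Txnrd1 Fat1 (r = 0.994) and for Ugdh Noc3l (r = 0.991). Gclc and Gclm, which did not separate the groups, had looser matches in Gpd1 (r = 0.945) and Ccne2 (r = 0.934). These values describe 8 points that share the group difference.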

How the data were processed

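Liver RNA of 8 mice was sequenced after poly(A) selection with dUTP second-strand synthesis and paired reads, per the labels' protocols. The deposited counts are raw whole numbers per gene. The deposited FPKM values are the authors' own, per gene length and library depth. They were used as given and are not an exact rescaling of these counts. The submitters' processing notes name HISAT2, StringTie, cutadapt, FastQC and DESeq2, with the build GRCm38/mm10. No source used here says whether reads were assigned by strand, so a gene and its overlapping neighbour may hold each other's reads. Libraries held 61179103 to 81664058 counts (71969363 ± 7637973 in DDC, 63171820 ± 1610097 in control livers, exact two-sided permutation p = 0.0857, where 0.0286 is the smallest 4 against 4 allows).

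The main test was edgeR 4.0.16 in R 4.3.3 (TMM, filterByExpr, robust quasi-likelihood, Benjamini-Hochberg over 19535 genes, no covariate). SE is the absolute log2 fold change over the square root of F. Adjusted p-values in the text are edgeR's unless another tool is named. FPKM entered only ratios, levels between genes and limma 3.58.1 fits. The fit was tested on simulated data.

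Members and lists were chosen with earlier results of these data known. The text names Nfe2l2, Keap1 and, from each list, up to 4 called genes with the largest change at 1 CPM or more and the largest called change against the list. Slc3a2 was named as the partner of Slc7a11. Outside that rule, genes named after their values were seen include Gss, Rpia, Mthfd2, Uxs1, Fasn, Acaca, Nnt and the cell type markers named singly. Genes that overlap members, G6pd2 and the genes that follow members most closely were also named apart from it. Alternatives were a replicate block, omission of each library in turn, limma voom, DESeq2 1.42.0, other scalings and filters, and limma fits of log2 FPKM after adding 0.1 or 1. Gene spans are the deposited table's, and promoter windows are RefSeq's.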

Additional observations from a re-analysis of the deposited data

Results flagged for a closer look

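A liver was singled out where its gap to the nearest liver of its group exceeded 0.829 of the group's range, a limit that chance passes in about 1 of 20 groups. Among 92 groups of 4 looked at, 8 had such a liver, 3 of them among the 20 groups of the 10 genes. The groups of different genes share the same livers and are not independent. The share flagged over all genes tested was not worked out, so these counts are not read as an excess. G6pdx was 80.2 CPM in DDC replicate 1, against 28.0 to 30.3 CPM in the other DDC livers, and Nqo1 was 38.6 CPM in that liver against 22.0 to 24.1 CPM. Srxn1 was 21.7 CPM in control replicate 2, against 27.9 to 28.7 CPM in the other controls. DDC replicate 1 was also apart for Gpx3 (138 CPM, the others 60.2 to 63.7), Msrb1 (52.6 CPM, the others 57.8 to 58.7), Mlxipl (139 CPM, the others 94.2 to 98.9) and Srebf1 (150 CPM, the others 225 to 231). Gpx3 was 20.7 CPM in control replicate 4 and 13.2 to 13.8 CPM in the other controls. The cause was not tested.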

How the results depend on the processing

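The calls and directions of Slc7a11, Srxn1, G6pdx, Nqo1, Gsr, Ugdh, Txnrd1 and Me1 held under all 20 alternatives run. Gclc and Gclm passed as higher under the 5 settings without TMM-like scaling: library totals, totals without the 20 most abundant genes, and the 3 FPKM fits. The Gclc log2 fold change was -0.019 with limma voom and -0.023 with the replicate block, and leaving out single libraries gave -0.23 to 0.13. Those 5 settings also moved the counts of genes higher and lower from 5893 and 5205: to 11505 and 1750 on plain library totals, 11006 and 1914 on totals that leave out the 20 most abundant genes, 11581 and 1821 on log2(FPKM + 0.1), 11639 and 1809 on log2(FPKM + 1), and 12283 and 1745 on log2(FPKM + 0.1) with no filter. Leaving out single libraries gave 5039 to 6228 genes higher and 4593 to 5532 lower, 7 of the 10 genes higher in each case, and 1 or 2 lower, the second being Gclc without DDC replicate 1. Same-numbered livers did not deviate together (correlations -0.215, -0.184, 0.029 and -0.047). With the replicate block 4810 genes were higher and 4654 lower, with the same 7 of the 10 genes higher and Me1 lower. Slc7a11 had the lowest counts of the 10 genes, 30 to 49 per control library.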

Other observations

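Nnt, the gene of a mitochondrial transhydrogenase, occupies 2 rows of the deposited table, and different livers had most of its level on different rows. ENSMUSG00000025453 held 8.75, 3.20, 5.16 and 47.3 CPM in DDC replicates 1 to 4, against 184, 188, 16.6 and 14.7 CPM in control replicates 1 to 4. ENSMUSG00000116207 held 58.4, 69.1, 57.5 and 17.9 CPM in DDC livers, against 0, 0, 163 and 173 CPM in control livers. Neither row passed the edgeR test (adjusted p = 0.117 and 0.746). Summed after these values were seen, the rows gave 67.2, 72.3, 62.7 and 65.2 CPM in DDC livers and 184, 188, 180 and 188 CPM in control livers, without overlap. The sum was not tested. These are transcript levels, and they do not show whether working enzyme or NADPH was made from them in either group.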
